A study of Mus musculus with 40 samples.

Results

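Lyz1, Mmp7, Itln1 and Ang4, 4 genes chosen by name because their products are stored in the secretory granules of Paneth cells, were followed among the 15958 genes of the expression table. Each was read in 22 intestinal libraries, 11 of the duodenum and 11 of the ileum, all of them batch 1 in the labels. The mice were wild-type C57BL/6 males operated on at 8 weeks of age. Small bowel resection (SBR) removed 50-60% of the small bowel per the labels, and the sham operation cut and rejoined the ileum without removing bowel. The study's methods give a larger share, taken from the proximal bowel, so the extent of resection differs between these sources. From 3 weeks after surgery the animals were gavaged daily for 7 weeks, either with WUSTL0717 at 30 mg/kg, an agonist of the liver X receptor (LXR) described as restricted to the gut, or with its vehicle. Each region therefore had 3 groups: sham with vehicle (n = 3), SBR with vehicle (n = 4) and SBR with WUSTL0717 (n = 4). The compound was compared after SBR only, since no group here combined sham surgery with WUSTL0717. The ileum left after SBR lies beyond the new join, whereas the duodenum lies before it. The labels do not tie a duodenum to an ileum of the same mouse, nor do they state that the libraries of a group came from separate mice, so p-values measure the spread between these libraries. The sequencing depth of each library is unknown, because only normalised values were deposited.

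Paneth cells sit at the base of the small intestinal crypts, between the stem cells, and release antimicrobial proteins into the crypt lumen. They are scarce in the duodenum of the mouse and most numerous in the ileum, their formation depends on Wnt signalling, and their granules also hold alpha-defensins. Lyz1 encodes the Paneth cell lysozyme, an enzyme that cuts bacterial cell walls. Ang4 encodes angiogenin 4, a secreted protein of the ribonuclease family with activity against microbes. Itln1 encodes intelectin 1, a lectin that binds sugars on microbial surfaces. Mmp7 encodes matrilysin, the protease that cuts mouse alpha-defensin precursors into active peptides. In whole tissue, fewer Paneth cells and less RNA per Paneth cell cannot be told apart.

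The 4 genes lie on 4 chromosomes and so share no locus. In the GRCm38 annotation, Lyz1 (ENSMUSG00000069515) spans chr10:117287797-117292868 on the minus strand and Mmp7 (ENSMUSG00000018623) spans chr9:7692090-7699585 on the plus strand. Itln1 (ENSMUSG00000038209) spans chr1:171518122-171535294 and Ang4 (ENSMUSG00000060615) spans chr14:51763878-51773590, both on the minus strand. Of the other Paneth cell products that the table and the annotation share, 18 genes lie together on chromosome 8, between 21025545 and 21735471, where the alpha-defensin genes are clustered. The part of the RefSeq promoter table (GRCm38.p6) from 250 bases before to 30 bases after each start site is printed here, because the 4 genes varied together across libraries from separate start regions. Of the start sites listed for Mmp7 the first is shown. Capitals mark matches on either strand to CTTTGA (core of the TCF/LEF element), CAGCTG (an E box), AGGTCA (the core letters of nuclear receptor sites, which LXR and its partner RXR read as a repeat) or TATAAA (the TATA box). The windows are Lyz1 at chr10:117292839-117293118 (minus strand), Mmp7 at chr9:7691840-7692119 (plus strand), Itln1 at chr1:171535265-171535544 (minus strand) and Ang4 at chr14:51773561-51773840 (minus strand).
Lyz1: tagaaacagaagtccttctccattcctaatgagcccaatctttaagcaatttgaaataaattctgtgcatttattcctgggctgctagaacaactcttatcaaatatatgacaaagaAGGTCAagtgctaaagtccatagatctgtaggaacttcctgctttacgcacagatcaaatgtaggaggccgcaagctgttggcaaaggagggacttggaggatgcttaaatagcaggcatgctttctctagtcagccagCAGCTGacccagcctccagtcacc
Mmp7: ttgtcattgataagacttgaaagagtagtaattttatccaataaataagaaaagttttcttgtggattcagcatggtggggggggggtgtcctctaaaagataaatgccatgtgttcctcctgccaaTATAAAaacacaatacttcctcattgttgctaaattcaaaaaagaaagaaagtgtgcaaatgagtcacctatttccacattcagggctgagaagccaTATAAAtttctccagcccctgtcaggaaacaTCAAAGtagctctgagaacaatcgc
Itln1: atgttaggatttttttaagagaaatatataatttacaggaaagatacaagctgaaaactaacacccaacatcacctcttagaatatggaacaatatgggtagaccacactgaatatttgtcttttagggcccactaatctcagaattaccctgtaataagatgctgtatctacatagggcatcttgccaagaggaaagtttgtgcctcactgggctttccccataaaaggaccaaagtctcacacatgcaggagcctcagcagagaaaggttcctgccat
Ang4: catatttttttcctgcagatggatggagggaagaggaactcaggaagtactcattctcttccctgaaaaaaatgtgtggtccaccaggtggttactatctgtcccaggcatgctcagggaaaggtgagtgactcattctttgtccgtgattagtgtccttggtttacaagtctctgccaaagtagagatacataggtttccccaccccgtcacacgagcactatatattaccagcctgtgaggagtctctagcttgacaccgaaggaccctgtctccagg

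Only Lyz1 and Mmp7 held matches to the letters searched. In Lyz1 the nuclear receptor core AGGTCA begins at -133 and the E box begins at 6, counted from the start site. In Mmp7 TATAAA begins at -123 and again at -26, and the TCF/LEF core, written on the opposite strand, begins at 5. No letters of the 4 motifs were found in the windows of Itln1 and Ang4. Each motif is common: of 32544 promoters of 300 bases in the same table, 16% held CTTTGA, 16.4% held CAGCTG, 16.2% held AGGTCA and 13.6% held TATAAA. These matches describe letters and are not evidence of binding.

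Part of each transcript reads like another gene, which bears on counts made from uniquely placed reads. Of all stretches of 50 bases in the longest transcript, 16.1% of those in Lyz1 were shared with Lyz2, the lysozyme of macrophages. The share was 7.36% for Mmp7, 4.70% for Ang4, mostly with Ang5, and 1.01% for Itln1. For the alpha-defensins it was larger, at 28.1% for Defa24, 52.4% for Defa30 and 74.9% for Defa22, so that the levels of single alpha-defensin genes are uncertain. The reads were paired and longer than 50 bases, so these shares do not give the part of reads that could not be placed. Lyz2 and Ang, the nearest relatives of Lyz1 and Ang4 in the table, are given beside them below. Ang2, Ang3, Ang5, Ang6 and Itlnb are not analysed here.

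All 4 genes were higher in the ileum than in the duodenum, whatever the surgery or treatment, and this was the clearest difference in these data. Values are log2 TPM (transcript abundance scaled to transcript length and library size) as the authors deposited them after adjustment for batch. That adjustment can shift and stretch each gene by its own amount, so levels are compared between groups of one gene and not between genes.

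Lyz1 in the ileum was at 8.71, 8.56 and 7.90 log2 TPM in the sham libraries. After SBR with vehicle it was at 8.33, 7.74, 8.31 and 8.61, and after SBR with WUSTL0717 at 7.80, 7.84, 6.94 and 7.99. The sham and vehicle libraries overlapped throughout, and replicate 3 of the WUSTL0717 group was the lowest ileal library. In the duodenum Lyz1 was at 5.15, 5.56 and 4.84 in the sham libraries. There it was at 3.87, 3.78, 4.17 and 3.49 after SBR with vehicle, and at 3.69, 4.73, 4.70 and 3.73 after SBR with WUSTL0717. Each of the 8 duodenal libraries after SBR lay below the lowest duodenal sham library.

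Ang4 in the ileum was at 6.03, 6.03 and 5.28 log2 TPM in the sham libraries, at 5.51, 5.09, 5.75 and 5.87 after SBR with vehicle, and at 5.20, 4.80, 4.21 and 5.24 after SBR with WUSTL0717. All 4 ileal libraries of the WUSTL0717 group lay below the 3 sham libraries, and they overlapped those of the vehicle group. In the duodenum Ang4 was at 2.64, 3.22 and 2.17 in the sham libraries. It was at 1.19, 0.84, 1.20 and 0.62 after SBR with vehicle and at 1.16, 1.14, 1.38 and 0.72 after SBR with WUSTL0717. The highest of these 8 libraries, at 1.38, was still below the lowest sham library.

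Itln1 in the ileum was at 6.52, 6.30 and 6.05 log2 TPM in the sham libraries, at 6.18, 5.63, 6.14 and 6.37 after SBR with vehicle, and at 5.88, 5.93, 5.02 and 6.01 after SBR with WUSTL0717. As for Ang4, the WUSTL0717 libraries of the ileum lay below every sham library, for both genes by a margin of only hundredths of a unit. In the duodenum Itln1 was at 3.97, 4.18 and 3.70 in the sham libraries. It was at 2.88, 2.60, 2.67 and 2.39 after SBR with vehicle and at 2.81, 3.31, 3.09 and 2.42 after SBR with WUSTL0717. Sham libraries were again above all libraries after SBR.

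Mmp7 in the ileum was at 7.45, 7.21 and 6.52 log2 TPM in the sham libraries, at 7.10, 6.38, 7.23 and 7.23 after SBR with vehicle, and at 6.90, 6.78, 5.21 and 6.75 after SBR with WUSTL0717. These 3 groups overlapped, with replicate 3 of the WUSTL0717 group far below the others. In the duodenum Mmp7 was at 3.86, 3.73 and 3.29 in the sham libraries. It was at 2.48, 1.76, 1.93 and 1.26 after SBR with vehicle and at 1.29, 2.48, 2.16 and 1.21 after SBR with WUSTL0717. The 2 SBR groups covered nearly the same range, and both lay below the sham group.

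**Figure D1:**
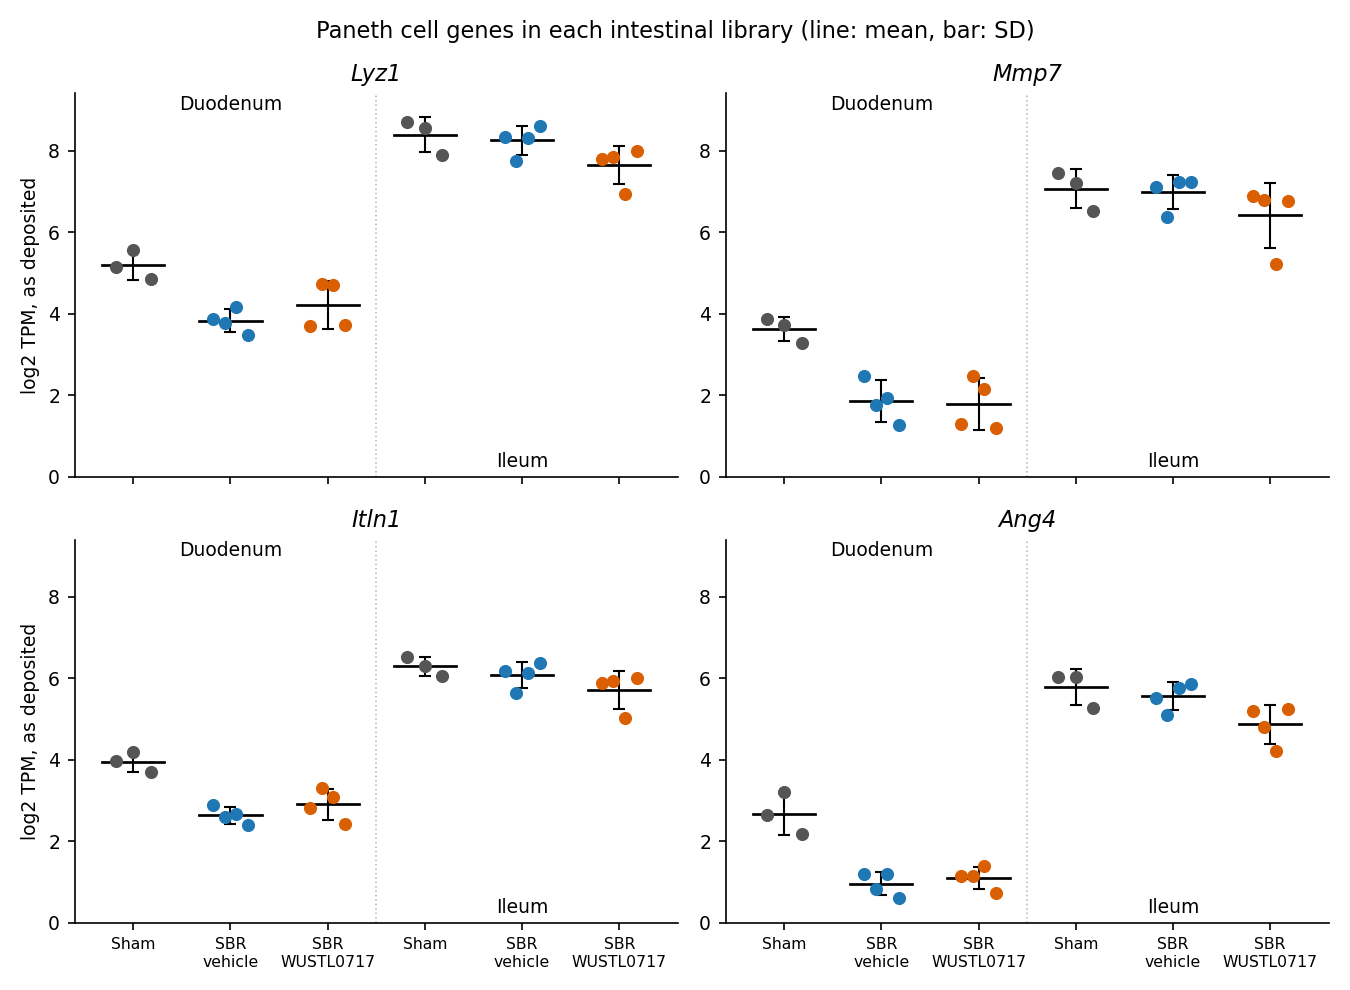
Level of Lyz1, Mmp7, Itln1 and Ang4 (log2 TPM as deposited, 1 point a library) in the 3 groups of the duodenum and of the ileum, with the mean of each group as a line and the SD as a bar. For each gene the ileal libraries lie above all duodenal ones, and in the duodenum the sham libraries lie above the 8 libraries after SBR.

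The order of the 6 group means was therefore nearly the same for each gene. Ileum with sham was highest, followed by ileum after SBR with vehicle, ileum after SBR with WUSTL0717, duodenum with sham, and the 2 duodenal SBR groups. Only the last 2 places differed, with the vehicle group lowest for Lyz1, Itln1 and Ang4 and the WUSTL0717 group lowest for Mmp7. Neighbours in this order overlapped at the first, second and last steps for each gene. At the step from the ileum to the sham duodenum no library overlapped, with means of 7.64 and 5.18 for Lyz1, 6.41 and 3.63 for Mmp7, 5.71 and 3.95 for Itln1, and 4.86 and 2.67 for Ang4. No library overlapped at the next step down either, from the sham duodenum to the higher duodenal SBR group.

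In sham mice the ileum exceeded the duodenum by 3.20 log2 units for Lyz1 (SE 0.40, adjusted p = 9.51e-06), by 3.44 for Mmp7 (SE 0.46, adjusted p = 2.33e-05), by 2.34 for Itln1 (SE 0.34, adjusted p = 4.72e-05) and by 3.10 for Ang4 (SE 0.36, adjusted p = 2.47e-06), by limma with Benjamini-Hochberg adjustment over all tested genes. This corresponds to 9.22-fold, 10.8-fold, 5.06-fold and 8.59-fold on the deposited scale. Of the 15923 genes tested in this comparison 14.6% passed at an adjusted p of 0.05, 10.8% with higher values in the ileum, and the median difference of all genes was 0.52. The exact permutation test on 3 against 3 libraries cannot go below p = 0.1, which each of the 4 genes reached. After SBR with vehicle the excess was 4.42 for Lyz1, 5.13 for Mmp7, 3.44 for Itln1 and 4.59 for Ang4, with adjusted p from 3.25e-10 to 1.35e-08. Here 56.9% of all genes passed, and the median of all genes was 0.98. After SBR with WUSTL0717 the excess was 3.43, 4.62, 2.80 and 3.76 in the same order, with adjusted p from 6.78e-09 to 2.42e-07 and 55.9% of all genes passing. In both SBR groups the median of all genes had itself moved by almost a full unit between the regions. When each library was centred on its own median, the 4 genes kept their direction and passed the test in all 3 groups.

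The other Paneth cell products followed the same regional order. Of 50 listed products the table held 30, mostly alpha-defensins, and in sham mice 29 of 30 were higher in the ileum, 26 of them past the test, where 25.6% of all genes were lower there. The exception was Reg4, which encodes a secreted lectin and was lower in the ileum by 1.59 log2 units (adjusted p = 0.0156 by limma). The median difference of the 30 was 4.80. Of these, Defa2, Defa20, Defa32, Defa35 and Defa41 lay under the level required for testing in the duodenum alone. They entered through the ileum, where they are high. The count, the calls and the median therefore include genes for which the filter favoured a higher ileal value. Lyz2 was higher in the ileum by 2.36 (adjusted p = 0.00205 by limma), and for Ang the difference was 0.61 (adjusted p = 0.450). The 25 products that read exactly 0 in every liver library differed by 3.42 to 9.52, with a median of 4.97, and the 5 products that did not, Defa24 among them, by -1.59 to 2.63. Only 20 of these 25 reached the level required for testing in the duodenum, and for the rest the filter favoured a higher ileal value. The 4 genes, which do not read 0 in the liver libraries that were adjusted together with the intestine, differed by 2.34 to 3.44. Whether the adjustment for batch made the 4 differences smaller was not tested. In sham mice Defa22 had means of 13.02 in the ileum and 3.50 in the duodenum, Defa21 of 12.96 and 3.95, and Defa30 of 12.55 and 9.13. These were the products with the highest deposited values in the ileum, which is not an order of abundance, since each gene was adjusted by its own amount and these genes share sequence.

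In the duodenum, all 4 genes were lower after SBR with vehicle than after sham surgery, with no overlap between the groups, but none passed the test over all genes. The comparison asks what loss of bowel further down does to the duodenum. The difference was -1.36 for Lyz1 (SE 0.40, adjusted p = 0.271), -1.71 for Ang4 (SE 0.30, adjusted p = 0.107), -1.31 for Itln1 (SE 0.33, adjusted p = 0.238) and -1.77 for Mmp7 (SE 0.41, adjusted p = 0.197), by limma. In linear terms the levels were 2.56-fold, 3.28-fold, 2.48-fold and 3.41-fold lower. The 95% intervals, not corrected for the number of genes, ran from -2.23 to -0.48 for Lyz1, from -2.37 to -1.05 for Ang4, from -2.03 to -0.60 for Itln1 and from -2.65 to -0.89 for Mmp7.

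By limma no gene of the 15093 tested passed in this comparison (0.0%), whereas 2426 (16.1%) had an unadjusted p under 0.05, and an unmoderated two-sample test called 2. Groups did not overlap, with lower values after SBR, for 6.24% of all genes and for each of the 4. The exact two-sided permutation test gave p = 0.0286 for each, the smallest that 4 against 3 libraries allow. Values of all genes were on the whole lower in this comparison, with a median of -0.36 and 69.9% of genes below 0. After each library was centred on its median the differences were -0.95 for Lyz1, -1.31 for Ang4, -0.91 for Itln1 and -1.36 for Mmp7. With 4 added to the linear values before the log the differences were -0.81 for Ang4 and -1.09 for Mmp7. These linear values carry the adjustment for batch, so the constant is not a level in TPM. Leaving out replicate 1 of the vehicle group brought Ang4 and Mmp7 to an adjusted p of 0.0455 and Itln1 to 0.0497, and down-weighting of variable libraries brought all 4 past the threshold, as given in the closing section. Among all genes, 0 to 589 were called with single libraries left out and 0 to 2497 under the other alternatives.

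Most other Paneth cell products were also lower in the duodenum. Of the 25 tested, 23 were lower after SBR, where 69.9% of all genes were, and 18 were lower with an unadjusted p under 0.05, where 12.7% of all genes were. None passed the adjusted test. Their median was -1.26, against -0.36 for all genes. Defa30 was lower by 1.81 log2 units (adjusted p = 0.238 by limma), from a mean of 9.13 to 7.32. Defa22 was one of the 2 that were not lower, with means of 3.50 and 3.62. Genes for Paneth cell specification and secretory upkeep were lower in 12 of 19 cases, a share below that of all genes, with none called and a median of -0.50. The list was split: of its transcription factors, Sox9 was lower, at -1.997, and Atoh1 was not, at 0.0272.

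**Figure D2:**
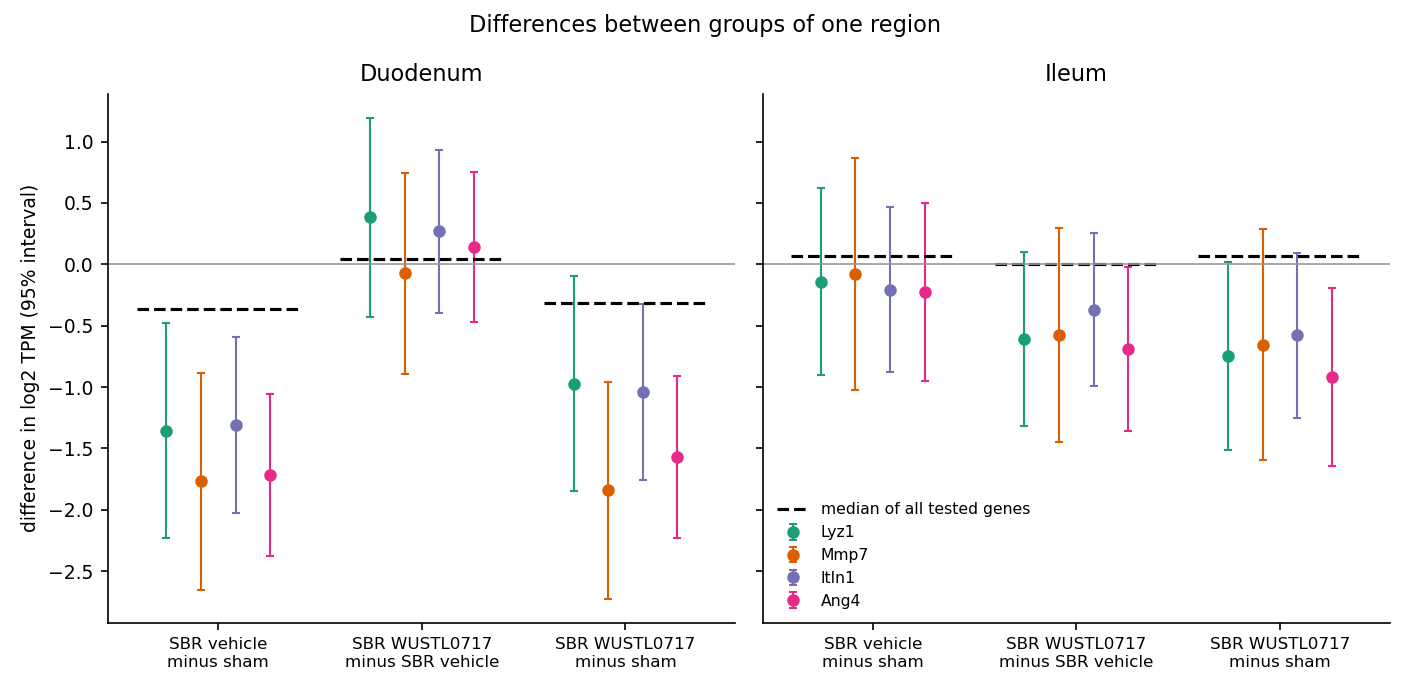
Difference in log2 TPM between groups of the duodenum (left) and the ileum (right) for the 4 genes, with uncorrected 95% intervals from limma, and the median of all tested genes as a dashed line. In the duodenum both comparisons with sham lie below 0 for all 4 genes, at -0.97 to -1.84, and in the ileum the SBR vehicle group differs from sham by at most 0.23.

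Markers of other crypt and mucosal cells were read in the same comparison, in which none of them passed the adjusted test and 69.9% of all genes were lower. All 8 cycling cell genes tested, such as Mki67 and Pcna, were lower in the duodenum after SBR, with a median of -1.10. Of 9 stem cell genes 8 were lower (median -1.21), and of 9 macrophage genes 8 were lower (median -1.32). Enterocyte genes were higher in 8 of 9 cases (median 0.48). Pancreatic acinar genes, which would mark attached pancreas, were lower in 10 of 11 cases with a median of -1.63. Summed levels are log2 of summed linear values, in which each gene carries its own adjustment for batch. For the pancreatic acinar genes the sum ran from 7.19 to 10.8 over the sham libraries. After SBR with vehicle it ran from 6.04 to 10.2, and the 2 ranges overlap widely. The summed level of the macrophage genes ran from 8.44 to 10.5 and from 6.99 to 8.31. For goblet cell genes it ran from 7.93 to 8.39 over the sham libraries and from 7.61 to 8.16 after SBR with vehicle. In the same order the ranges were 5.56 to 6.16 and 5.46 to 5.52 for enteroendocrine genes. Smooth muscle genes had 6.22 to 6.72 and 4.97 to 7.04. Lyz2, the macrophage lysozyme that shares sequence with Lyz1, was at a mean of 6.43 in sham libraries and 4.99 after SBR with vehicle, a difference of -1.45 (adjusted p = 0.274 by limma). The part of these cells in the result for the 4 genes was not tested. Ang, the relative of Ang4, had means of 5.35 and 4.39 (adjusted p = 0.340 by limma).

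**Figure D3:**
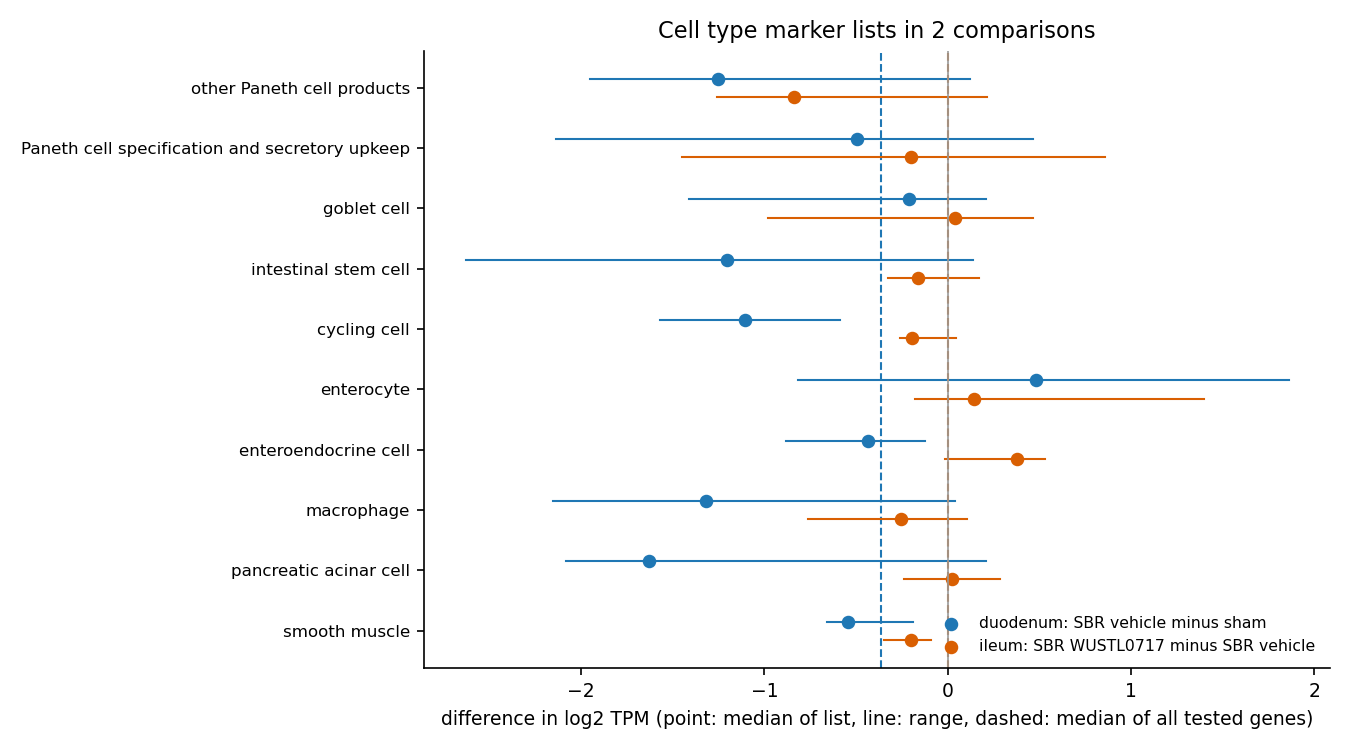
Difference in log2 TPM for lists of cell type markers in the duodenum (SBR vehicle minus sham, blue) and in the ileum (SBR WUSTL0717 minus SBR vehicle, orange), with the median of each list as a point, its range as a line and the median of all tested genes dashed. Paneth cell products lie low in both comparisons, at medians of -1.26 and -0.84, whereas stem and cycling cell genes lie low in the duodenal comparison and near 0 in the ileal one, where their medians are -0.16 and -0.19.

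No change of the 4 genes with WUSTL0717 was detectable in the duodenum. Against SBR with vehicle the difference was 0.38 for Lyz1, 0.14 for Ang4, 0.27 for Itln1 and -0.07 for Mmp7, each with an adjusted p of 1 by limma, and the groups overlapped for every gene. For Lyz2 the difference was 0.41 (adjusted p of 1) and for Ang 1.13 (adjusted p = 0.789), by limma, and their part in these values was not tested. The 95% intervals left room for changes either way, from -0.43 to 1.20 for Lyz1, from -0.47 to 0.75 for Ang4, from -0.39 to 0.93 for Itln1 and from -0.89 to 0.74 for Mmp7. In this comparison 39 genes passed (0.258%). Single libraries weighed on these small values. Without replicate 2 of the WUSTL0717 group they were 0.21 for Lyz1 and 0.14 for Itln1, without replicate 3 of that group 0.22 for Lyz1 and 0.047 for Ang4, and without replicate 4 of the vehicle group 0.026 for Ang4. Without replicate 4 of the WUSTL0717 group they were 0.43 for Itln1 and 0.27 for Ang4. The sign for Mmp7 turned without replicate 1 of the vehicle group (0.13) and without replicate 1 (0.091) or 4 (0.12) of the WUSTL0717 group. Of 25 other Paneth cell products 14 were higher and 11 lower, where 45.7% of all genes were lower, with a median of 0.11 and none called. Of the pancreatic acinar genes 11 of 11 had higher means with the compound, at a median of 2.10, but none passed the test (adjusted p from 0.969 to 1 by limma).

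The duodenum after SBR with WUSTL0717 also lay below sham. The difference was -1.57 for Ang4, which passed the test (SE 0.30, adjusted p = 0.0365 by limma) at 2.98-fold lower. It was -1.84 for Mmp7 (adjusted p = 0.0658), -1.04 for Itln1 (adjusted p = 0.194) and -0.97 for Lyz1 (adjusted p = 0.263), and these did not pass. In this comparison 121 genes were called (0.802%), of which 8 were lower (0.053%). The groups did not overlap for any of the 4 genes, as for 12.8% of all genes with lower values. The call for Ang4 was lost whenever any 1 of the 7 libraries compared was left out, with adjusted p from 0.0619 to 0.137. It was also lost with a replicate block (-1.45, adjusted p = 0.162), after centring (-1.21, adjusted p = 0.0668), after quantile normalization (-1.25, adjusted p = 0.0529), with the compared groups alone (adjusted p = 0.0963) and in the unmoderated test (adjusted p = 0.145), all but the last by limma. With 4 added before the log the difference was -0.77 for Ang4 and -1.11 for Mmp7, and after centring -0.61 for Lyz1 and -0.68 for Itln1. This comparison shares its sham libraries with the one before, so it adds no independent evidence of a difference from sham. Of 25 other products 24 were lower, where 67.2% of all genes were, with a median of -1.36 and none called. Lyz2 differed by -1.03 (adjusted p = 0.278) and Ang by 0.18 (adjusted p = 0.866), by limma. The enterocyte gene Fabp2, a fatty acid binding protein, rose by 3.45 in this comparison (adjusted p = 0.0348 by limma). Summed levels of cycling cell genes ran from 6.06 to 6.16 in sham libraries and from 4.46 to 5.50 after SBR with WUSTL0717. In the same order they were 7.86 to 8.29 and 5.72 to 8.00 for stem cell genes. Macrophage genes had 8.44 to 10.5 and 7.11 to 8.47, and enterocyte genes 12.3 to 13.6 and 13.9 to 14.7. The part of these cells in the values of the 4 genes was not tested.

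**Figure D4:**
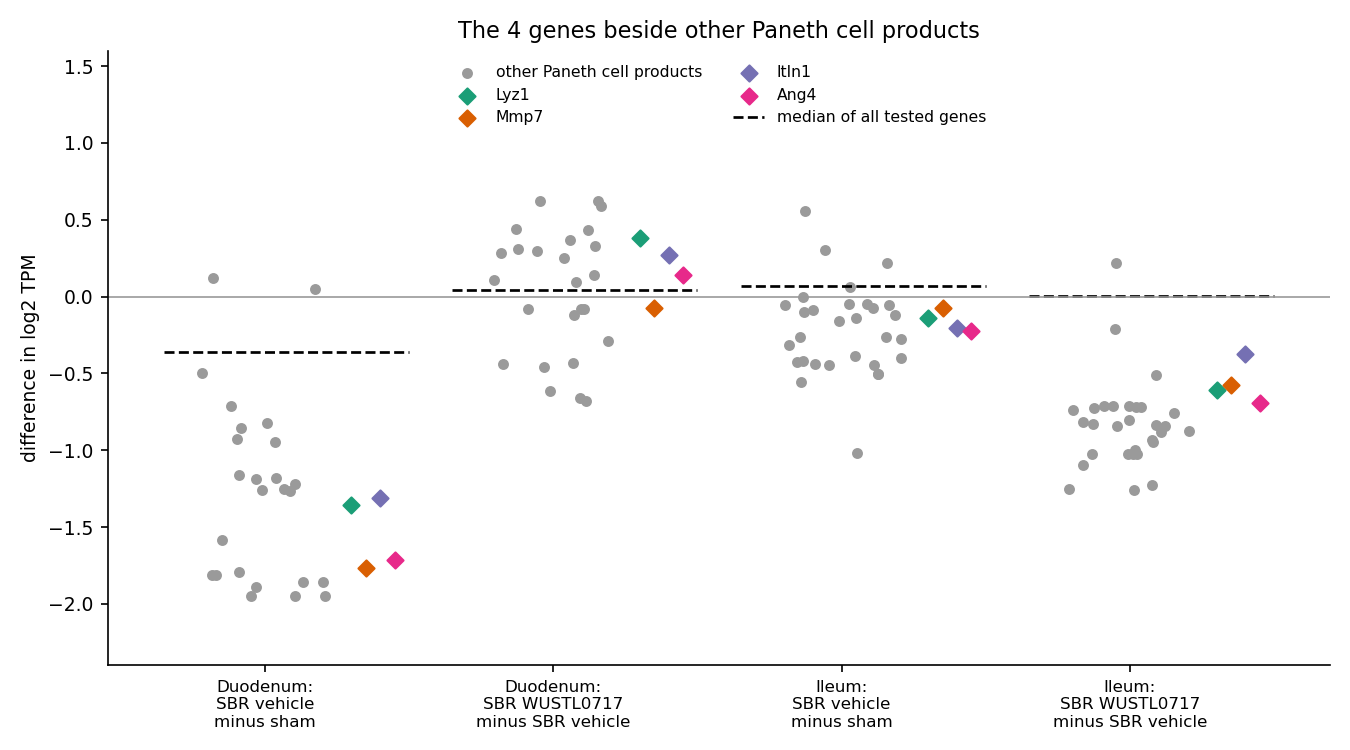
Difference in log2 TPM of 25 (duodenum) or 30 (ileum) other Paneth cell products, grey, and of Lyz1, Mmp7, Itln1 and Ang4, coloured diamonds, in 4 comparisons, with the median of all tested genes dashed. The products lie below 0 in the duodenum after SBR (median -1.26) and in the ileum with WUSTL0717 (median -0.84), and scatter around 0 in the duodenum with WUSTL0717 (median 0.11).

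In the ileum, SBR with vehicle left the 4 genes close to sham. The difference was -0.14 for Lyz1, -0.23 for Ang4, -0.21 for Itln1 and -0.08 for Mmp7, with adjusted p from 0.973 to 0.996 by limma and overlapping groups, while 55 genes of 15772 passed (0.349%). The 95% intervals ran from -0.90 to 0.62 for Lyz1, from -0.95 to 0.50 for Ang4, from -0.88 to 0.47 for Itln1 and from -1.02 to 0.87 for Mmp7. Single libraries weighed on these small values. Without replicate 3 of the sham group they were -0.39 for Lyz1, -0.48 for Ang4, -0.33 for Itln1 and -0.35 for Mmp7, and without replicate 2 of the vehicle group 0.030, -0.072, -0.057 and 0.12 in the same order. Without replicate 1 of the sham group they were 0.020, -0.099, -0.092 and 0.12. Lyz1 was also at -0.054 and Ang4 at -0.10 without replicate 2 of the sham group, and at -0.26 and -0.33 without replicate 4 of the vehicle group. Among genes that did change in this comparison were the ileal enterocyte genes Fabp6, the bile acid binding protein, and Slc10a2, the bile acid transporter, which rose by 2.05 and 2.02 (adjusted p = 0.0137 and 0.0145 by limma). The enterocyte list as a whole was mixed, with 6 of 11 genes higher, 5 lower and a median of 0.021, and Lct, which encodes lactase, differed by -3.34 (adjusted p = 0.0981 by limma). Of 30 other Paneth cell products 26 were lower, where 42.3% of all genes were, with a median of -0.21 and none called. Lyz2 differed by -0.45 (adjusted p = 0.938) and Ang by 0.87 (adjusted p = 0.756), by limma.

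With WUSTL0717 the 4 genes of the ileum had lower means than after SBR with vehicle, but the groups overlapped and none passed the test. The difference was -0.61 for Lyz1 (SE 0.32, adjusted p = 0.817), -0.69 for Ang4 (SE 0.31, adjusted p = 0.720), -0.37 for Itln1 (SE 0.29, adjusted p = 0.910) and -0.58 for Mmp7 (SE 0.40, adjusted p = 0.883), by limma. The median of all genes was 0.0031, and 11 genes passed (0.0697%), all of them higher with the compound. Only Ang4 had an unadjusted p under 0.05 (p = 0.0451 by limma, against 0.0857 in the exact two-sided permutation test), as did 6.87% of all genes. Without replicate 3 of the WUSTL0717 group the differences were smaller, at -0.37 for Lyz1, -0.47 for Ang4, -0.14 for Itln1 and -0.18 for Mmp7. Alternatives other than left-out libraries reached -0.80 for Lyz1, -0.80 for Ang4, -0.57 for Itln1 and -0.91 for Mmp7, and none passed. Lyz2 differed by -0.76 (adjusted p = 0.817) and Ang by -0.32 (adjusted p = 0.967), by limma, and the part of Lyz2 in the value of Lyz1 was not tested.

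Most other Paneth cell products had lower values in this comparison too. In the ileum 29 of 30 were lower with WUSTL0717 than with vehicle, where 49.6% of all genes were lower, and 13 had an unadjusted p under 0.05, where 2.75% of all genes were lower at that level. None passed the adjusted test, the smallest adjusted p being 0.548 by limma, and their median was -0.84. Without replicate 3 of the WUSTL0717 group, a choice made after seeing the data, 29 of 30 were still lower, with a median of -0.54, and 3 had an unadjusted p under 0.05. Because alpha-defensin genes share sequence and cells, these genes are not independent of each other. In that replicate the summed level of the products was 13.5 (log2 of summed linear values) against 14.6 to 14.9 in the other 3 libraries of its group. Its summed goblet cell level was 9.49 against 9.54 to 9.93, and its smooth muscle level 6.92 against 7.14 to 8.35. The stem cell list was at 6.47 against 6.67 to 7.42, the cycling cell list at 6.40 against 6.44 to 7.32, Paneth cell specification at 8.03 against 8.27 to 8.62, and the paralogs of the 4 genes at 8.73 against 9.24 to 10.1. Enterocyte genes, at 12.3, lay within the range of the other 3, from 12.0 to 12.4, as did macrophage genes, at 9.14 within 8.78 to 9.30. The part of these differences in the values of the 4 genes was not tested.

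Against sham, the ileum after SBR with WUSTL0717 differed by -0.75 for Lyz1, -0.91 for Ang4, -0.58 for Itln1 and -0.65 for Mmp7, with adjusted p from 0.222 to 0.573 by limma, while 343 genes passed (2.17%). Without replicate 3 of the WUSTL0717 group the differences were -0.51 for Lyz1, -0.70 for Ang4, -0.35 for Itln1 and -0.25 for Mmp7. The groups did not overlap for Ang4 and Itln1, as for 3.73% of all genes with lower values. The exact two-sided permutation test gave p = 0.0286 for Ang4 and 0.0571 for Itln1. Of the other products 28 of 30 were lower, where 44.2% of all genes were, with a median of -1.14. Defa39, an alpha-defensin, was the only one of them called, and it fell by 2.11 (adjusted p = 0.0204 by limma). Of the paralogs, Mmp9, a gelatinase related to Mmp7, fell by 1.47 (adjusted p = 0.0174 by limma). Lyz2 differed by -1.21 (adjusted p = 0.223) and Ang by 0.56 (adjusted p = 0.718), by limma. Of 11 goblet cell genes 9 were higher and 2 lower, with a median of 0.43 and 1 called, and of 8 enteroendocrine genes 6 were higher and 2 lower, with a median of 0.44 and 3 called. The goblet cell gene called was Tff3, a trefoil peptide of mucus, which rose by 1.34 (adjusted p = 0.0406 by limma). The enteroendocrine genes called were Pyy, Sct and Nts, which encode gut hormones and rose by 1.40, 1.28 and 1.47 (adjusted p = 0.0115, 0.0140 and 0.0202 by limma). Of 11 enterocyte genes 9 were higher and 2 lower (median 0.34), and those called were again Fabp6 and Slc10a2, which rose by 1.93 and 1.85 (adjusted p = 0.00829 and 0.0104 by limma).

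Whether SBR acted differently in the 2 regions was tested as an interaction. The SBR difference in the ileum exceeded that in the duodenum by 1.22 for Lyz1 (adjusted p = 0.343), by 1.49 for Ang4 (adjusted p = 0.241), by 1.10 for Itln1 (adjusted p = 0.327) and by 1.69 for Mmp7 (adjusted p = 0.300), by limma. None passed, although all 4 unadjusted p-values were under 0.05, as they were for 13.8% of all genes, and the median of all genes was 0.44. In this test 12 genes of 15923 passed (0.0754%). For WUSTL0717 the difference between regions was -0.99 for Lyz1, -0.83 for Ang4, -0.64 for Itln1 and -0.50 for Mmp7, each with an adjusted p of 1, and 4 genes passed (0.0251%). Without replicate 3 of the ileal WUSTL0717 group it was -0.10 for Mmp7 and -0.41 for Itln1, and with library weights -1.17 and -0.97. For Mmp7 it was also smaller without replicate 2 of the duodenal WUSTL0717 group (-0.27) or replicate 4 of the duodenal vehicle group (-0.30). With library weights the interaction of SBR with region passed for all 4 genes, at 1.38 to 2.03 (adjusted p from 0.0203 to 0.0468 by limma), so whether SBR differed between duodenum and ileum depends on that setting. The count of all genes passing this interaction also moved, from 3 to 1989 over the alternatives other than left-out libraries. With 4 added before the log the interaction was 0.61 for Ang4 and 0.73 for Itln1. Its lowest values over the alternatives other than left-out libraries were 0.74 for Lyz1, 1.01 for Mmp7, 0.63 for Itln1 and 0.61 for Ang4.

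The 4 genes varied together from library to library. Across the 11 ileal libraries Pearson's r between pairs of them was 0.903 to 0.972 and Spearman's rho 0.855 to 0.991, with permutation p from 0.00012 to 0.00038 for r after adjustment over 12 of the 18 relations computed. The other 6, over all 11 duodenal libraries, were left out because the sham libraries stood apart there. Leaving out the 2 libraries farthest from the median left r at 0.780 to 0.926. For deviations from the group means r was 0.896 to 0.969, so the relation did not rest on differences between groups. In the duodenum r was taken over the 8 libraries after SBR, where it was 0.680 to 0.859 with adjusted permutation p from 0.0125 to 0.0668. There 3 of 6 relations had an adjusted permutation p under 0.05, and without the 2 farthest libraries r was 0.463 to 0.914.

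**Figure D5:**
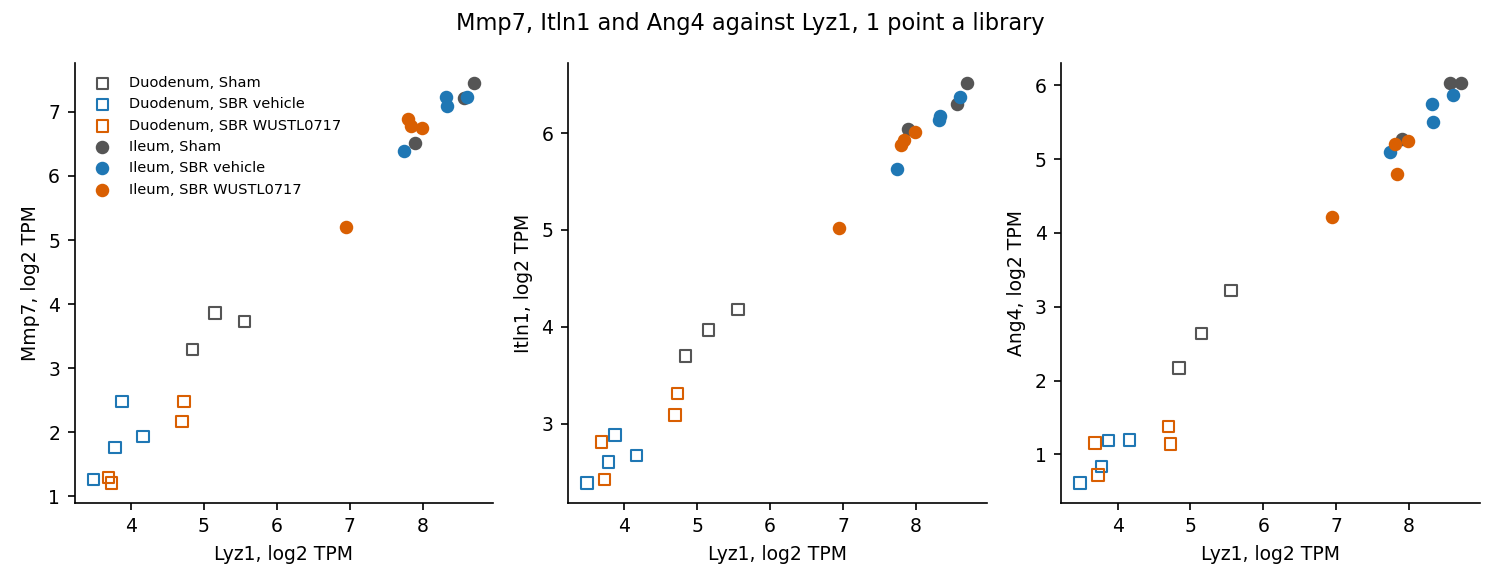
Level of Mmp7, Itln1 and Ang4 against that of Lyz1 (log2 TPM), 1 point a library, with filled circles for the ileum and open squares for the duodenum. Points of the ileum follow a narrow line (r of 0.945, 0.972 and 0.968), with replicate 3 of the WUSTL0717 group at its lower end, and the sham duodenum lies between the ileum and the other duodenal libraries.

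The genes whose pattern was most like that of each were sought among 14923 genes, by the lower of the Pearson r over the 11 duodenal and the 11 ileal libraries, as a description. For Lyz1 they were Defa24 (0.990 in the duodenum and 0.986 in the ileum), Defa30 (0.976 and 0.980) and Itln1 (0.949 and 0.972). For Ang4 they were Defa38 (0.951 and 0.955), Itln1 (0.956 and 0.925) and Defa24 (0.924 and 0.980). For Itln1 they were Defa24 (0.970 and 0.974), Defa38 (0.967 and 0.980) and Defa30 (0.981 and 0.959). For Mmp7 they were Itln1 (0.954 and 0.957), Defa30 (0.932 and 0.973) and Defa24 (0.926 and 0.956). For each of the 4 genes the other 3 ranked among its 10 closest, at places 1 to 10. Genes of one region's libraries share depth and tissue composition, so these values say only that the patterns are alike. The duodenal values include the sham libraries, which stood apart there, so they also carry the difference between groups. Between pairs of the 4 genes, r over all 11 duodenal libraries was 0.90 to 0.96. For deviations from the group means it was 0.62 to 0.91.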

How the data were processed

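The authors deposited 1 table of log2 TPM values for 40 libraries and 15958 genes. Per their methods, ribosomal RNA was removed, reads were aligned to GRCm38 with STAR, and uniquely aligned, unambiguous reads were counted with featureCounts. TMM size factors were calculated, and TPM values were logged and adjusted for batch with ComBat (intestine as batch 1, liver as batch 2). The study's methods do not say whether the TMM factors entered the TPM values. The adjustment can shift and stretch each gene, the count added before the log is not given in the sources used here, and depth is unknown. Of the 4 genes Itln1 shows the adjustment most plainly, since 17 of 18 liver libraries carry one identical value of 4.38, so liver levels were not compared with those of the intestine. Liver values served only to separate the Paneth cell products that read exactly 0 in every liver library from the rest.

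The 22 intestinal libraries were fitted with limma 3.58.1 (R 4.3.3; variance trend, no covariates, a mean level of 1 or more required of a gene, Benjamini-Hochberg over all tested genes, threshold 0.05), 1 fit per region and 1 fit of all 6 groups for comparisons between regions. The study itself used unmoderated tests, run here as an alternative. limma was also tested on simulated data. Single genes were compared by exact two-sided permutation tests, and correlations by 100000 permutations. Filters, added constants, scalings, weights, blocks and left-out libraries were varied. The 4 genes and the lists were chosen with earlier results of these data known. The genes named are the 4, the 3 genes most like each, and of each list those called and those with the highest deposited values, except that between regions called list genes are mostly given as counts. Names added after their values were seen are the examples Defa22 in the duodenum and the members quoted to describe a list.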

Additional observations from a re-analysis of the deposited data

Results flagged for a closer look

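Among 16 sets of 4 libraries (4 genes in 4 groups), 3 held a library far from the rest by Dixon's criterion, which chance meets in about 1 in 20 sets. Replicate 3 of the ileum after SBR with WUSTL0717 was set apart for Mmp7, at 5.21 log2 TPM against 6.75 to 6.90 in the other 3 libraries, and for Itln1, at 5.02 against 5.88 to 6.01. The same library was also the lowest for Lyz1 and Ang4, where the gap was smaller. Replicate 2 of the ileum after SBR with vehicle was set apart for Mmp7, at 6.38 against 7.10 to 7.23. The sets share libraries and the 4 genes vary together, so these are not separate events.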

How the results depend on the processing

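Of 886 values of the 4 genes under alternatives, 846 kept direction and side of the threshold. All 3 comparisons of ileum with duodenum did so under every alternative run. For SBR vehicle against sham in the duodenum, library weights gave -1.66 for Lyz1, -2.07 for Mmp7, -1.53 for Itln1 and -2.13 for Ang4 (adjusted p from 0.0179 to 0.0244), all past the threshold. The rule of an unadjusted p under 0.05 with a 2-fold change also called them (-1.36, -1.77, -1.31 and -1.71). These calls are to be read beside the count of all genes called. It ran from 0 to 2497 in this comparison over the alternatives other than left-out libraries. Leaving out single libraries gave -1.98 to -1.57 for Mmp7, -1.44 to -1.20 for Itln1, -1.97 to -1.44 for Ang4 and -1.53 to -1.17 for Lyz1, with adjusted p from 0.0455 to 0.525. For WUSTL0717 after SBR against sham in the duodenum, Mmp7 passed with 4 added before the log (-1.11) and with library weights (-1.78), and Itln1 with library weights (-1.11). The fold rule called Mmp7 (-1.84) and Itln1 (-1.04). Among all genes, 1 to 1885 were called in this comparison over the alternatives other than left-out libraries. The call for Ang4 was lost after centring (-1.21), quantile normalization (-1.25), with the compared groups alone or the unmoderated test (-1.57 in both) and with single libraries left out (-1.83 to -1.30). Signs turned where differences were near 0. For Mmp7 with WUSTL0717 in the duodenum they turned with library weights (0.28) and without single libraries (-0.30 to 0.13). For SBR vehicle against sham in the ileum they turned without single libraries, in Lyz1 (-0.39 to 0.030) and Mmp7 (-0.35 to 0.12). Library weights brought the interaction of SBR with region past the threshold, at 1.52 for Lyz1, 2.03 for Mmp7, 1.38 for Itln1 and 1.83 for Ang4. Among all genes, 3 to 1989 passed this interaction over the alternatives other than left-out libraries. The cause of these shifts was not tested. A filter at 3 left Mmp7 and Ang4 untested in the duodenum.

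A replicate block took the call for Ang4 against sham in the duodenum with WUSTL0717 to -1.45 (adjusted p = 0.162 by limma) and changed no other call. Same-numbered libraries of one treatment in the 2 regions correlated at -0.136 to 0.447 (mean 0.121, 11 pairs), against -0.456 to 0.236 (mean -0.044, 30 pairs) for different numbers, and 12 of 22 libraries correlated best with their own number. Same-numbered libraries of one region gave -0.32 to 0.32. Not every pair was over 0.1, so the numbers were not taken as pairs, and whether they mark the same mice is not known.

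Counts of genes called moved more. SBR vehicle against sham in the duodenum gave 0 genes, against 0 to 2497 under alternatives. WUSTL0717 against vehicle gave 39 in the duodenum (2 to 596) and 11 in the ileum (1 to 491). WUSTL0717 against sham gave 121 in the duodenum (1 to 1885) and 343 in the ileum (31 to 1301), SBR vehicle against sham in the ileum 55 (6 to 683), and the interactions 12 (3 to 1989) and 4 (1 to 9), before single libraries were left out. Between the regions 2331 genes passed in sham mice (1069 to 5549), 9068 after SBR with vehicle (4826 to 10770) and 8895 with WUSTL0717 (4737 to 9811). Leaving out single libraries gave 0 to 589 for SBR vehicle against sham in the duodenum, and 1 to 229 for the interaction of SBR with region. Between the regions in sham mice 1721 genes were higher and 610 lower in the ileum, but 843 and 1177 after centring. After SBR with vehicle the split was 7990 and 1078, but 2311 and 2637 after centring, and with WUSTL0717 7759 and 1136, but 2215 and 2522.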
